A study of Mus musculus with 3 samples.

Results

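Collagen chains are the polypeptides that wind in threes into the collagens of the extracellular matrix, and their genes were followed here across 3 libraries of cultured mouse cortical neurons. The genes were chosen by name, as protein-coding genes whose symbol is Col, a number, the letter a and a number. This gave 44 chains among the 54232 genes counted, of which 11 were fibrillar, 6 were basement membrane chains and 27 belonged to other collagen families. A level of at least 1 CPM (a count scaled to the size of its library) in at least 1 library was reached by 33 chains, against 13884 of all genes. Ratios are given for those 33, and at the end for the rarer Col13a1 and Col4a4.

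The cells were wildtype cortical neurons of CD1 mice, and each group is a single library, repeat 3 of its kind. Cells of the IKVAV PA library were given a peptide amphiphile, a self-assembling peptide, that carried IKVAV, a laminin-derived sequence. The IKVAV PA + PEDOT-S library had an added component called PS2 in its title and PEDOT-S_OH in its library name, taken here as PEDOT-S, a sulfonated conducting polymer. The control library is labelled PDL, which the labels do not spell out, and the treatment field names a peptide amphiphile for the control as well. Culture age, medium, cell density and the number of animals are not stated. The series asks whether conductive and bioactive scaffolds promote neuronal maturation, so each scaffold was compared with the PDL control and the scaffolds with each other.

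Every collagen molecule is built of 3 chains whose coding sequence repeats a glycine codon followed by 2 others, because only glycine fits into the core of the triple helix. Most fibrillar collagens hold 1 long unbroken helix and pack into fibrils. Basement membrane collagen (type IV) has a helix with many short breaks and forms sheets. The other families decorate fibrils, span membranes or build smaller networks. In the brain, fibrillar and type IV collagens are known mainly from the meninges and the vessel wall, while a few others, such as types XIX and XXV, are known from neurons.

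Longer unbroken runs set the fibrillar chains apart from the other classes in the coding sequence itself. Therefore 1 stretch per kind is shown from GENCODE M21 transcripts (GRCm38), 108 bases each, 5′ to 3′ on the coding strand. Capitals mark glycine codons (GGN). The Col1a1 stretch covers coding bases 502 to 609 (exons 6 to 8, chr11:94939451-94939957, plus strand), the Col4a1 stretch coding bases 433 to 540 (exons 7 to 9, chr8:11244498-11245219, minus strand) and the Col25a1 stretch coding bases 871 to 978 (exons 15 to 18, chr3:130522442-130535433, plus strand). The spans include introns.
Col1a1: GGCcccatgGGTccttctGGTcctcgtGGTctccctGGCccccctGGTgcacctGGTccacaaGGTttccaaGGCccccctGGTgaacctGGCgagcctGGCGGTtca
Col4a1: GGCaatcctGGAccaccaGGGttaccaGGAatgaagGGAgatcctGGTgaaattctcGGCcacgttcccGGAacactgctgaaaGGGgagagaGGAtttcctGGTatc
Col25a1: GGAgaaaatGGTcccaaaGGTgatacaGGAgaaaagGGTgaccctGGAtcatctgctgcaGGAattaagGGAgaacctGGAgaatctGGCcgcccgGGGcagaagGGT
Col1a1 is shown at the start of its longest run of GGN triplets, which went on for 338 triplets without a break. Col4a1 and Col25a1 are shown at the end of their longest runs, of 40 triplets each, where the spacing of the capitals slips. Over the 11 fibrillar chains the longest run was 216 to 344 triplets and each chain held 2 or 3 runs of at least 5 triplets. Col24a1 and Col27a1 had the shortest of these, at 216 and 217 of the 327 and 329 triplets in all their runs. Over the 6 basement membrane chains the longest run was 39 to 66 triplets, and each chain held 16 to 24 runs. These ranges did not set them apart from every chain of the other families. Col16a1, for one, held 17 runs with a longest of 52 triplets.

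Collagen chains held a smaller part of the counts on both scaffolds than in the PDL control. The 44 chains summed to 35621 of 78993105 counts in the PDL control (0.0451%), 36732 of 124425958 in IKVAV PA (0.0295%) and 16042 of 79057998 in IKVAV PA + PEDOT-S (0.0203%). Scaled to library size, these were 447, 295 and 205 normalised CPM. The sum was 1.52-fold lower in IKVAV PA than in the PDL control (95% counting interval 1.495 to 1.54) and 2.18-fold lower in IKVAV PA + PEDOT-S (2.14 to 2.22). With 1 library per group nothing measures the spread between cultures, so the groups were not tested against each other. Intervals cover counting error only, and each difference is one between libraries. In such bulk RNA, fewer cells of a type and less RNA per cell cannot be told apart.

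A gene counted as lower or higher when the bound of its interval nearest to no difference lay beyond 1.5-fold. By this rule 16 of 33 chains were lower and 0 higher in IKVAV PA than in the PDL control, where 3.42% of all 13884 genes were lower and 0.54% higher. In IKVAV PA + PEDOT-S 18 of 33 chains were lower and 0 higher than in the PDL control, beside 3.76% and 0.447% of all genes. Between the scaffolds, 9 of 33 chains were lower and 0 higher in IKVAV PA + PEDOT-S than in IKVAV PA, beside 2.02% and 0.331% of all genes. The median log2 ratio of the 33 chains was -0.68, -1.15 and -0.64 in these 3 comparisons, while the medians over all tested genes lay at 0.000, -0.002 and 0.007. A chain that passed the 1 CPM minimum through the PDL control alone was bound to be lower elsewhere, which was so for Col2a1, Col4a6, Col5a3 and Col8a2. Col6a5 and Col27a1 passed it through IKVAV PA alone, so they were bound to be lower in the other libraries. Without any minimum, 16, 19 and 11 of the 44 chains were lower and 1, 0 and 0 higher. Beside these, 846 of 31695 genes were lower and 484 higher in IKVAV PA than in the control. In IKVAV PA + PEDOT-S 1082 of 29836 genes were lower than in the control and 247 higher. Between the scaffolds 1123 of 31321 genes were lower and 230 higher. Each library enters 2 of the comparisons, so the 3 sets of values are not independent of each other.

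**Figure D1:**
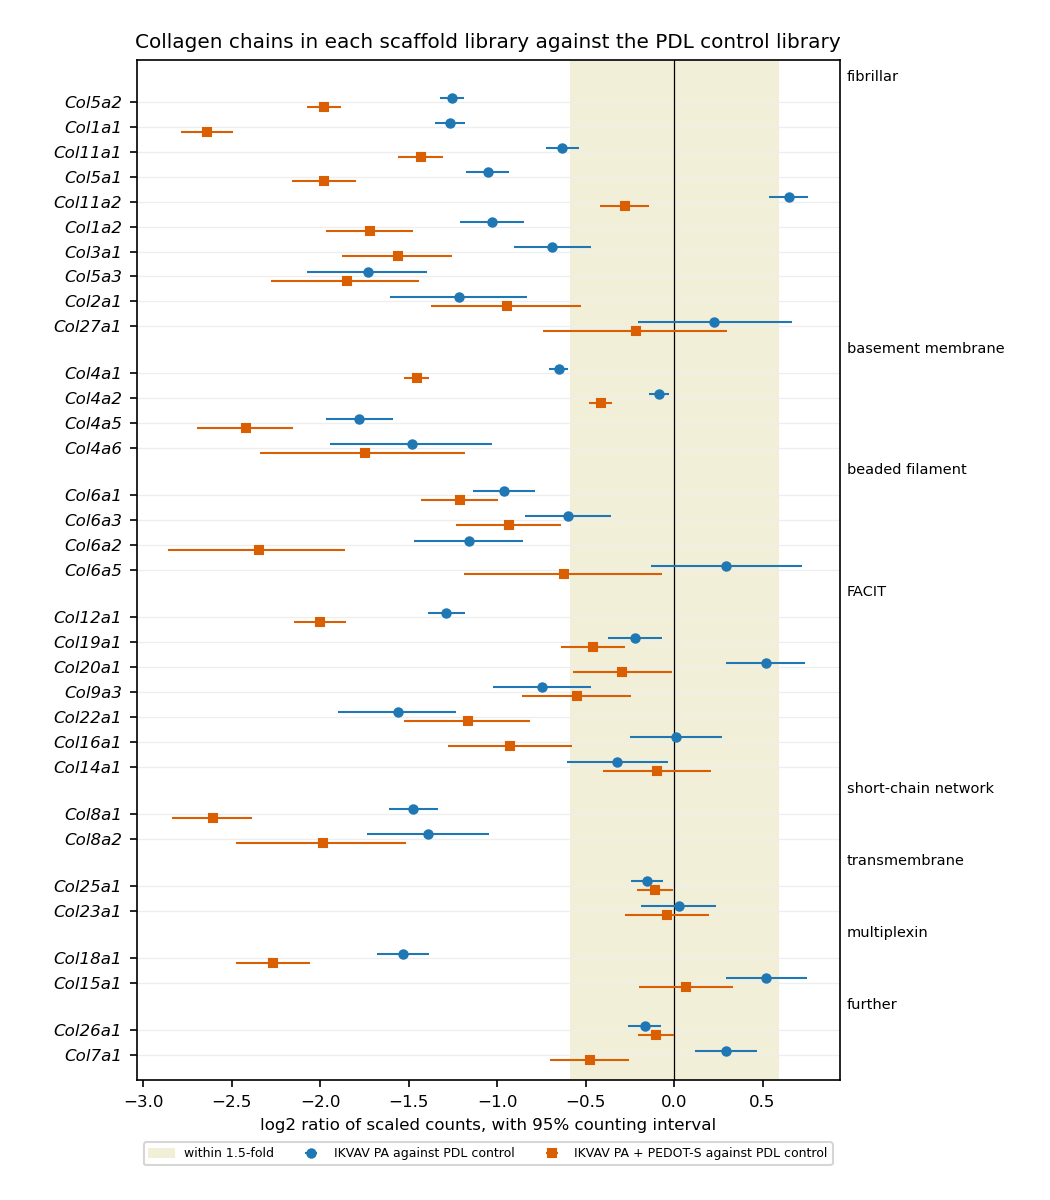
Each row is 1 of the 33 collagen chains with at least 1 CPM in a library. Points give the log2 ratio of scaled counts to the PDL control library for IKVAV PA (circles) and IKVAV PA + PEDOT-S (squares), bars the 95% counting interval, and the band 1.5-fold, with Col1a1 at -1.27 and -2.64 and Col25a1 inside the band in both.

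By the summed level of a class, fibrillar chains lay farthest below the control. By the median over chains, fibrillar and basement membrane chains lay about equally far below it. All 11 fibrillar chains summed to 159 CPM in the PDL control, 88.7 in IKVAV PA and 48.6 in IKVAV PA + PEDOT-S, which was 1.79-fold (1.75 to 1.84) and 3.27-fold (3.16 to 3.40) lower. The 6 basement membrane chains summed to 141, 104 and 71.6 CPM, 1.36-fold (1.32 to 1.39) and 1.97-fold (1.90 to 2.03) lower. For the other 27 chains the sums were 147, 102 and 84.7 CPM, 1.44-fold (1.40 to 1.48) and 1.74-fold (1.69 to 1.79) lower. In IKVAV PA + PEDOT-S the intervals of the 3 classes did not overlap. In IKVAV PA those of the basement membrane chains (1.36) and the other chains (1.44) also stood apart, but by little. Of the 10 fibrillar chains that reached 1 CPM, 6 were lower in IKVAV PA and 7 in IKVAV PA + PEDOT-S than in the control, and 5 were lower with PEDOT-S than without, with median log2 ratios of -1.04, -1.63 and -0.76. Of the 4 such basement membrane chains 3, 3 and 1 were lower (medians -1.05, -1.58 and -0.48), and of the 19 such chains of other families 7, 8 and 3 (medians -0.32, -0.60 and -0.45). Over all genes, 3.42%, 3.76% and 2.02% were lower. The class counts and medians include Col2a1 and Col5a3 (fibrillar), Col4a6 (basement membrane) and Col8a2 (other). These passed the minimum through the PDL control alone, so they were bound to lie lower on the scaffolds. Col27a1 (fibrillar) and Col6a5 (other) passed it through IKVAV PA alone and were bound to be highest there.

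The make-up of the collagen message differed between the libraries. Fibrillar chains took 35.6% of all chain counts in the PDL control (exact 95% interval 35.1 to 36.1), 30.1% in IKVAV PA (29.6 to 30.6) and 23.7% in IKVAV PA + PEDOT-S (23.1 to 24.4). Basement membrane chains took 31.5%, 35.2% and 34.9%, and the other families 32.9%, 34.7% and 41.3%. Col4a2 alone, a type IV chain, went from 12.7% of chain counts in the PDL control to 18.2% in IKVAV PA and 20.8% in IKVAV PA + PEDOT-S. Col25a1, a membrane-spanning collagen of neurons, took 4.84%, 6.62% and 9.81%, although its own level barely differed.

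**Figure D2:**
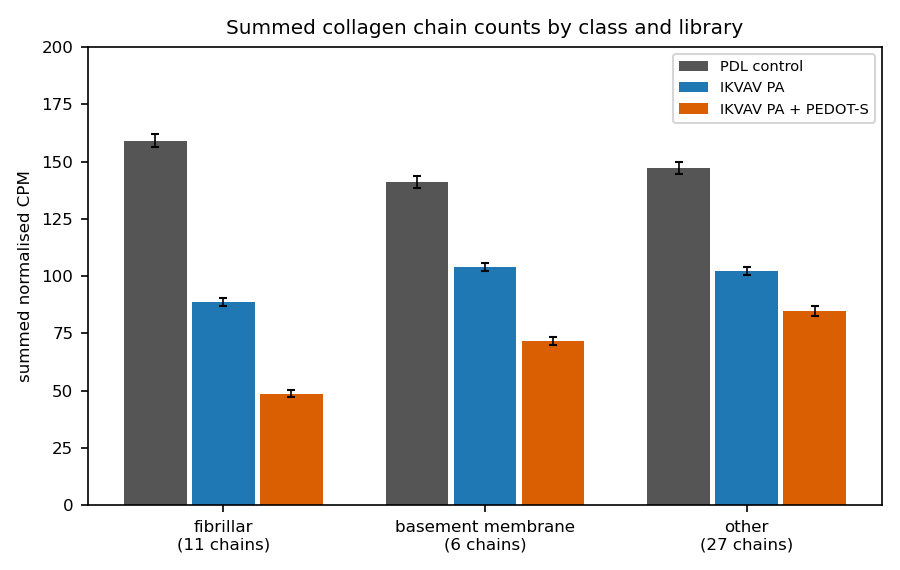
Summed normalised CPM over all chains of a class in each library, with the 95% counting interval as error bars. Fibrillar chains stand at 159, 88.7 and 48.6 CPM in PDL control, IKVAV PA and IKVAV PA + PEDOT-S, the steepest of the 3 staircases.

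Among the fibrillar chains, Col5a2 and Col1a1 were the most abundant per kilobase of exon in the PDL control, at 5.73 and 5.33 CPM per kb. Col1a1 encodes the chain that type I collagen holds most of, the fibril former of bone, skin and tendon, and lies at chr11:94936224-94953042 (plus strand, GRCm38). Its counts were 2785 in the PDL control, 1810 in IKVAV PA and 439 in IKVAV PA + PEDOT-S, or 35.0, 14.5 and 5.61 CPM. It stood highest in the control and lowest with PEDOT-S, 2.41-fold (2.27 to 2.56) and 6.23-fold (5.64 to 6.91) below the control, and 2.59-fold (2.33 to 2.88) lower in IKVAV PA + PEDOT-S than in IKVAV PA. Col1a2, the partner chain of type I, stood at 7.48, 3.67 and 2.27 CPM in the same order of libraries, 2.04-fold (1.80 to 2.31) and 3.29-fold (2.78 to 3.91) below the control.

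Type V chains, which join type I fibrils from within and limit their width, were lower on both scaffolds. Col5a2 (chr1:45374321-45503282, minus strand) stood at 54.9 CPM in the PDL control, 23.01 in IKVAV PA and 13.9 in IKVAV PA + PEDOT-S. That put it 2.39-fold (2.28 to 2.50) and 3.94-fold (3.69 to 4.22) below the control, and 1.65-fold (1.54 to 1.77) lower with PEDOT-S than without. Col5a1 followed it at 15.9, 7.66 and 4.04 CPM, 2.08-fold (1.91 to 2.26) and 3.94-fold (3.48 to 4.47) below the control. Col5a3, the rarest of the 3 type V chains, was at 2.90, 0.875 and 0.805 CPM. Its levels on the 2 scaffolds did not differ beyond counting error, with an interval from 0.664 to 1.27 for their ratio.

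Col3a1, the chain of type III collagen of soft tissue and vessel walls, stood at 4.41, 2.74 and 1.49 CPM in PDL control, IKVAV PA and IKVAV PA + PEDOT-S. It counted as lower in IKVAV PA + PEDOT-S (2.95-fold, 2.38 to 3.67), while in IKVAV PA its interval of 1.38-fold to 1.87-fold lower reached inside the bound. Col2a1, the chain of cartilage type II collagen, stood at 1.77, 0.762 and 0.920 CPM. It was lower in IKVAV PA (2.32-fold, 1.78 to 3.04), and the interval for IKVAV PA + PEDOT-S, 1.44-fold to 2.59-fold lower, reached just inside the bound. Col27a1, a chain of a minor fibrillar collagen of cartilage, stood at 0.891, 1.04 and 0.767 CPM, and none of its 3 ratios lay beyond the bound.

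The type XI chains, which form the core of cartilage fibrils, did not go together. Col11a1 stood at 23.4 CPM in the PDL control, 15.1 in IKVAV PA and 8.66 in IKVAV PA + PEDOT-S. Col11a2 stood at 12.1, 18.9 and 9.93 CPM, so that its highest library was IKVAV PA. Its ratio of IKVAV PA to the control was 1.57 (1.45 to 1.69), the highest of any measured chain in that comparison, with the lower bound inside 1.5-fold. Between the scaffolds both chains counted as lower in IKVAV PA + PEDOT-S, Col11a1 by 1.74-fold (1.59 to 1.90) and Col11a2 by 1.90-fold (1.75 to 2.06).

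**Figure D3:**
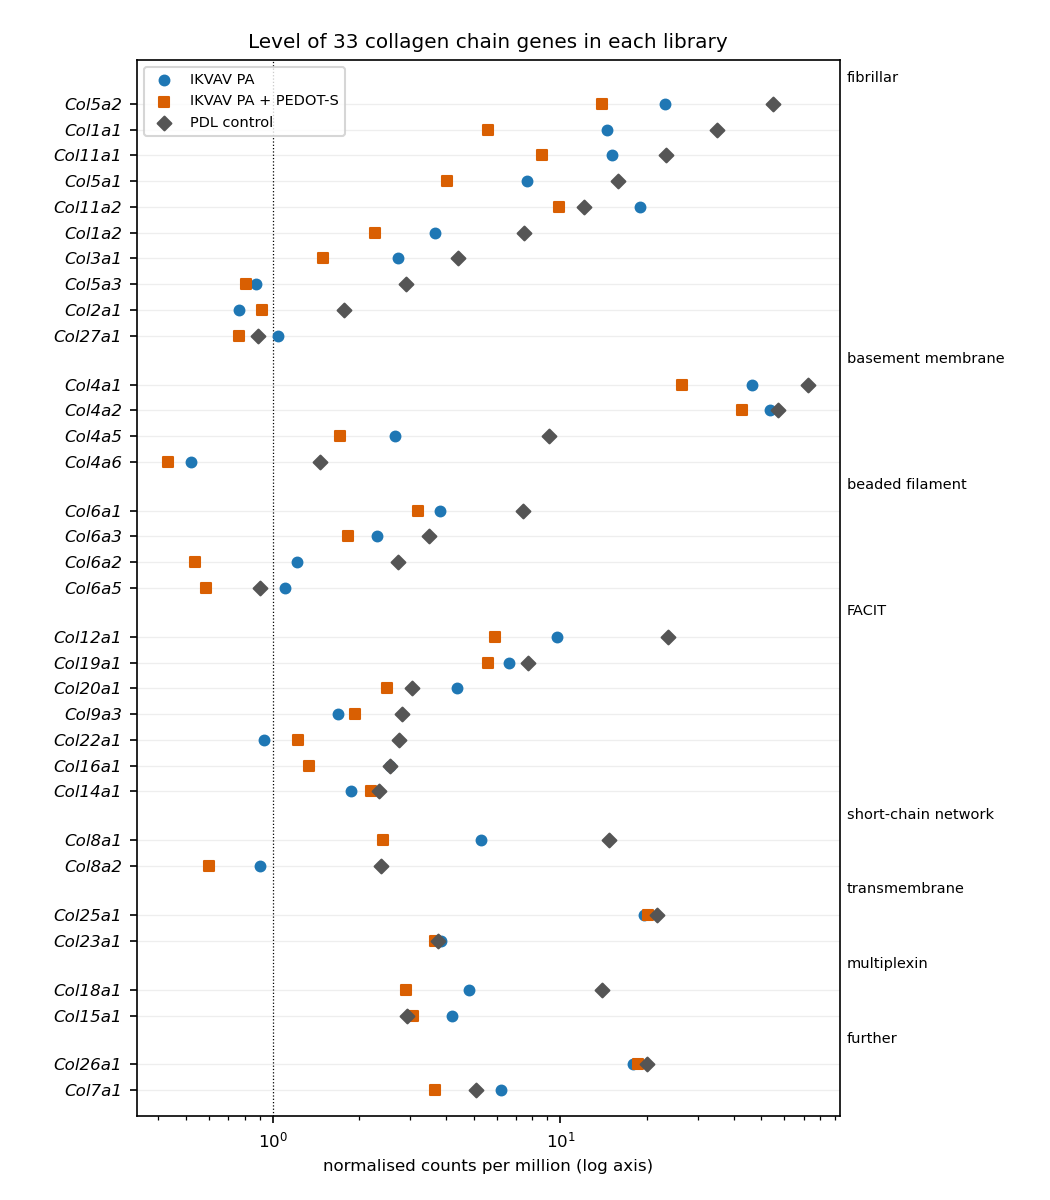
Normalised CPM (log axis) of the 33 chains in each library, grouped by collagen family and ordered by the PDL control level. The dotted line marks 1 CPM, and most fibrillar chains step down from PDL control over IKVAV PA to IKVAV PA + PEDOT-S, as Col5a2 does from 54.9 over 23.01 to 13.9 CPM.

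The most abundant single chains per kilobase were Col4a1 and Col4a2 in each of the 3 libraries. These chains of the type IV network, found in nearly all basement membranes, stood at 9.72 and 8.60 CPM per kb in the PDL control, 6.19 and 8.11 in IKVAV PA and 3.55 and 6.45 in IKVAV PA + PEDOT-S. Not per length, Col4a1 was at 72.6, 46.2 and 26.5 CPM in these libraries, 1.57-fold (1.51 to 1.63) and 2.74-fold (2.61 to 2.88) below the control. Col4a2 was at 56.9, 53.7 and 42.7 CPM, 1.06-fold (1.02 to 1.10) and 1.33-fold (1.27 to 1.39) below the control, so it stayed within the bound on both scaffolds. Col4a1 lay above Col4a2 in the control and below it on both scaffolds.

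These chains are made from neighbouring genes that face away from each other, Col4a1 at chr8:11198423-11312826 on the minus strand and Col4a2 at chr8:11312805-11449287 on the plus strand. The RefSeq start sites (GRCm38.p6) put 22 bases into both transcripts, and the 30 bases around them, chr8:11312801-11312830, are shown on the plus strand because the pair share this start region while their levels differ. Capitals mark the bases from the Col4a2 start to the Col4a1 start.
Col4a2/Col4a1: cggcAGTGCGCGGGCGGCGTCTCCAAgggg
Overlapping exons made up 0.295% of the exonic bases of Col4a1 and 0.982% of those of Col4a2. Within a library the ratio of the 2 chains does not depend on scaling. Per kb, Col4a1 stood to Col4a2 as 1.13 (1.09 to 1.18) in the PDL control, 0.763 (0.737 to 0.791) in IKVAV PA and 0.550 (0.520 to 0.581) in IKVAV PA + PEDOT-S. Set against the control, the pair ratio was 0.675 (0.640 to 0.712) in IKVAV PA and 0.486 (0.454 to 0.520) in IKVAV PA + PEDOT-S.

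The less common type IV chains Col4a5 and Col4a6, which form the network of selected basement membranes, were both lower on both scaffolds. Col4a5 stood at 9.16 CPM in the PDL control, 2.67 in IKVAV PA and 1.71 in IKVAV PA + PEDOT-S. The control was far above both scaffolds, by 3.43-fold (3.01 to 3.92) and 5.35-fold (4.45 to 6.49). Col4a6 stood at 1.46, 0.522 and 0.434 CPM, 2.79-fold (2.04 to 3.84) and 3.35-fold (2.27 to 5.07) below the control. Col4a3 and Col4a4, known from the kidney filter, stayed under 1 CPM in every library.

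Chains that are made for the same molecule could be compared within each library, and 12 such pairs or relatives were set side by side per kb. Exon length covers every annotated exon of a gene, 6563 bases for Col1a1 and 12426 for Col1a2. The size of a pair ratio therefore depends on the annotation, while its difference between libraries does not. For type V, Col5a1 stood to Col5a2 as 0.327 (0.307 to 0.348) in the PDL control, 0.376 (0.349 to 0.405) in IKVAV PA and 0.327 (0.288 to 0.371) in IKVAV PA + PEDOT-S. Set against the control this pair ratio was 1.15 (1.04 to 1.27) in IKVAV PA, a small shift beyond counting error, and 1.0004 (0.867 to 1.15) in IKVAV PA + PEDOT-S. The type I ratio of Col1a1 to Col1a2 was 8.85 (8.10 to 9.68), 7.50 (6.76 to 8.33) and 4.67 (3.91 to 5.59), lowest with PEDOT-S. Type XI split, with Col11a1 to Col11a2 at 1.05 (0.966 to 1.13) in the control but 0.430 (0.405 to 0.458) and 0.471 (0.424 to 0.522) on the scaffolds. The widest gap was between the relatives Col15a1 and Col18a1, whose ratio was 0.232 (0.201 to 0.268) in the control, 0.962 (0.854 to 1.08) in IKVAV PA and 1.17 (0.971 to 1.41) in IKVAV PA + PEDOT-S.

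**Figure D4:**
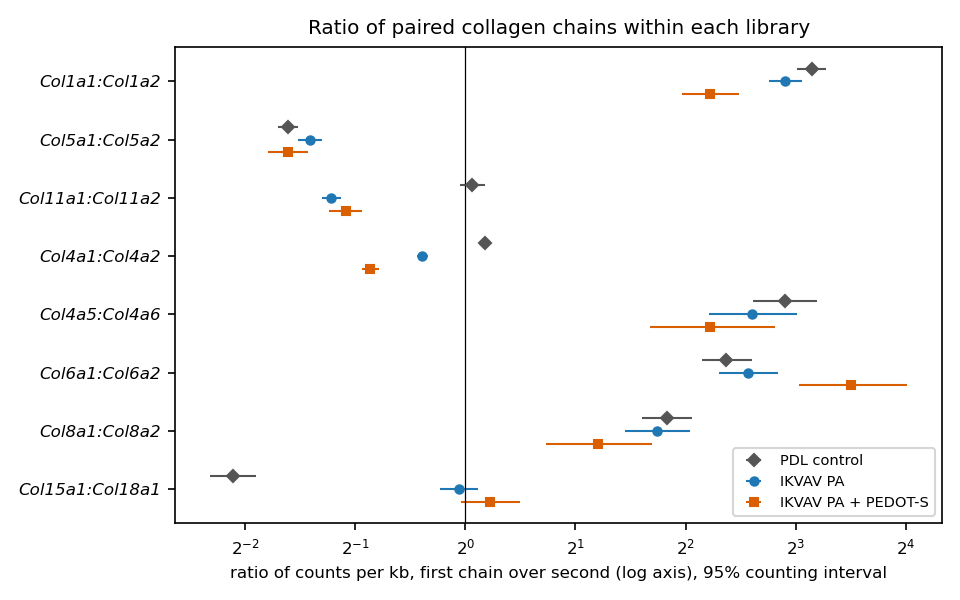
Ratio of counts per kb of exon of paired chains within each library, on a log axis, with the 95% counting interval. Col5a1:Col5a2 lies between 0.327 and 0.376 in all 3 libraries, while Col4a1:Col4a2 goes from 1.13 in the PDL control to 0.550 in IKVAV PA + PEDOT-S and Col15a1:Col18a1 from 0.232 to 1.17.

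Multiplexins are proteoglycan collagens of the basement membrane zone. Col18a1, whose C-terminal fragment is endostatin, stood at 13.9 CPM in the PDL control, 4.82 in IKVAV PA and 2.90 in IKVAV PA + PEDOT-S. It was 2.89-fold (2.61 to 3.20) and 4.81-fold (4.16 to 5.57) below the control. Col15a1 stood at 2.93, 4.196 and 3.07 CPM, with ratios to the control of 1.43 (1.23 to 1.68) and 1.05 (0.872 to 1.26), neither beyond the bound.

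The short-chain collagens Col8a1 and Col8a2, which build the hexagonal lattices of vessel walls and the cornea, summed with Col10a1 to 18.003, 6.93 and 3.61 CPM. That was 2.60-fold (2.38 to 2.83) and 4.98-fold (4.38 to 5.68) below the control. Col8a1 made up most of it, at 14.7, 5.30 and 2.41 CPM, 2.78-fold (2.52 to 3.06) and 6.09-fold (5.22 to 7.14) below the control and 2.19-fold (1.86 to 2.59) lower with PEDOT-S than without. Col8a2 stood at 2.37, 0.907 and 0.6004 CPM, and both scaffolds were below the control beyond the bound.

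Type VI collagen, the beaded filament around cells and basement membranes, needs Col6a1, Col6a2 and a further chain such as Col6a3. Col6a1 stood at 7.42, 3.81 and 3.21 CPM in PDL control, IKVAV PA and IKVAV PA + PEDOT-S, 1.95-fold (1.72 to 2.20) and 2.31-fold (1.99 to 2.69) below the control. Col6a2 stood at 2.72, 1.22 and 0.537 CPM, 2.23-fold (1.81 to 2.77) and 5.08-fold (3.64 to 7.24) below the control, on 217, 152 and 42 counts. Col6a3 stood at 3.49, 2.30 and 1.83 CPM, beyond the bound only in IKVAV PA + PEDOT-S (1.91-fold, 1.56 to 2.35). Col6a5, a relative of Col6a3, stood at 0.904, 1.11 and 0.588 CPM. It was 1.54-fold (1.048 to 2.28) lower in IKVAV PA + PEDOT-S than in the control and 1.88-fold (1.34 to 2.69) lower than in IKVAV PA, and both intervals reached inside the bound. Col6a5 reached 1 CPM in IKVAV PA alone, so the minimum itself fixed that it lay lower in the other libraries.

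FACIT collagens sit on the surface of fibrils and have interrupted helices. Col12a1, the type XII chain of dense connective tissue, led them in the control and stood at 23.7, 9.71 and 5.93 CPM, 2.44-fold (2.27 to 2.62) and 3.996-fold (3.61 to 4.43) below the control. Col22a1, a collagen of tissue junctions such as that of muscle and tendon, stood at 2.75, 0.931 and 1.23 CPM, 2.95-fold (2.35 to 3.73) and 2.24-fold (1.76 to 2.88) below it. Of the 7 measured FACIT chains, these 2 were beyond the bound against the control.

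The remaining FACIT chains lay closer together. Col19a1, which brain interneurons are known to make, stood at 7.70, 6.61 and 5.61 CPM, 1.16-fold (1.05 to 1.29) and 1.37-fold (1.21 to 1.55) below the control. Col9a3, a cartilage chain, stood at 2.82, 1.68 and 1.93 CPM, and Col14a1, a relative of Col12a1, at 2.35, 1.88 and 2.20 CPM. Col16a1 was at 2.55, 2.57 and 1.34 CPM, lower in IKVAV PA + PEDOT-S than in IKVAV PA (1.91-fold, 1.53 to 2.41) and 1.90-fold (1.49 to 2.43) below the control, where the interval reached just inside the bound. Col20a1 was at 3.05, 4.36 and 2.49 CPM, highest in IKVAV PA.

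The membrane-spanning collagens Col25a1 and Col23a1 and the small collagen Col26a1 were nearly level across the libraries, while the membrane-spanning Col13a1 and Col17a1 stayed under 1 CPM. Col25a1 (chr3:130131501-130599877, plus strand), known from neurons and from the amyloid plaques of Alzheimer's disease, stood at 21.7, 19.5 and 20.1 CPM in PDL control, IKVAV PA and IKVAV PA + PEDOT-S. Its ratios to the control were 0.8998 (0.846 to 0.958) and 0.928 (0.866 to 0.994). Col23a1, a relative, was at 3.77, 3.84 and 3.67 CPM, and Col26a1 at 20.0, 17.9 and 18.7 CPM. The interval of each of these 6 ratios lay within 1.5-fold of the control. Col7a1, the chain of the anchoring fibrils of skin, stood at 5.10, 6.23 and 3.67 CPM, highest in IKVAV PA. It was 1.70-fold (1.48 to 1.95) lower in IKVAV PA + PEDOT-S than in IKVAV PA, an interval that reached just inside the bound, so it did not count as lower.

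The 11 chains below 1 CPM in every library had 4 to 115 counts, and their levels lay between 0.0511 and 0.929 CPM. They were Col4a3, Col4a4, Col6a4, Col6a6, Col9a1, Col9a2, Col10a1, Col13a1, Col17a1, Col24a1 and Col28a1. Just inside the minimum stood Col27a1 and Col6a5, with 1.04 and 1.11 CPM in their highest library, and just outside stood Col10a1 and Col28a1, with 0.937 and 0.924 CPM before scaling. Each of the 44 chains had at least 1 count in each library.

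In 19 of 33 measured chains (57.6%) the PDL control was highest and IKVAV PA + PEDOT-S lowest. The same order held in 2294 of 13884 genes (16.5%), counting error left aside. Of the chains in this order, Col4a6, Col5a3 and Col8a2 reached 1 CPM in the PDL control alone, so the minimum itself fixed the control as their highest library. In 7 chains (21.2%, near the 18.8% of all genes) IKVAV PA was highest and IKVAV PA + PEDOT-S lowest, namely Col6a5, Col7a1, Col11a2, Col16a1, Col20a1, Col23a1 and Col27a1. For Col6a5 and Col27a1, which reached 1 CPM in IKVAV PA alone, the minimum itself fixed IKVAV PA as the highest library. Col15a1 alone had the PDL control lowest.

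Promoters were described for 35 chains with 38 windows of 300 bases in the RefSeq table (GRCm38.p6), each 250 bases before to 50 after a start site. Chains without a window were Col1a1, Col2a1, Col4a3, Col5a2, Col9a3, Col12a1, Col14a1, Col22a1 and Col26a1, so the motif shares leave them out. A pair is shown because 1 gene was lower on both scaffolds and 1 was level, Col1a2 (chr6:4505368-4505617, plus strand) and Col25a1 (chr3:130180595-130180844, plus strand). Shown are the 250 bases before the start site, 5′ to 3′, with capitals on every match to the motifs searched.
Col1a2: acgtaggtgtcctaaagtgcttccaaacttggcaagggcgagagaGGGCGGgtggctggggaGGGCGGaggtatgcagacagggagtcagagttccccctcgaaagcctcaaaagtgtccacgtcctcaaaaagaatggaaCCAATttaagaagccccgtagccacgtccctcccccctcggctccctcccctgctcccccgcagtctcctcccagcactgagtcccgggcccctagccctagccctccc
Col25a1: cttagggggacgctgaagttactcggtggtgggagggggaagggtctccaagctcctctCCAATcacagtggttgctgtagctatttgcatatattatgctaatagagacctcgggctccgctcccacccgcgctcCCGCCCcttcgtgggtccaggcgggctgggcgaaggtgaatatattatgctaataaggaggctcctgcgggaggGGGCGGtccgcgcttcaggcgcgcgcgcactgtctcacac
The motifs were the GC box GGGCGG, the CCAAT box CCAAT and GGAATG, the core letters bound by TEAD factors, on both strands, and the TATA box TATAAA on the gene's strand. No motif contains another. GGGCGG was in 23 of 38 chain windows (60.5%) against 35.7% of 32851 windows of all genes, CCAAT in 13 (34.2% against 37.4%), GGAATG in 5 (13.2% against 14.7%) and TATAAA in 5 (13.2% against 8.32%). Both stretches shown held CCAAT and the GC box. Chain windows had a median GC content of 59.8% against 52.7% over all windows.

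Genes that act on collagen were taken in 7 lists by step, and each list had 0 members higher than the control on either scaffold. Over all genes only 0.54% were higher in IKVAV PA and 0.447% in IKVAV PA + PEDOT-S, so 0 in lists of this size sets them apart from no other genes. The share of all genes that were lower, to be set beside the counts in these lists, was 3.42% in IKVAV PA and 3.76% in IKVAV PA + PEDOT-S. P4ha3 of the modification list and Thbs2 of the fibril list reached 1 CPM in the PDL control alone, so the minimum itself fixed that they lay lower on the scaffolds. Of 14 measured genes for prolyl and lysyl modification, the steps that stabilise the helix in the endoplasmic reticulum, 2 were lower in IKVAV PA and 3 in IKVAV PA + PEDOT-S, with median log2 ratios of -0.10 and -0.15. P4hb, a subunit of prolyl hydroxylase, stood at 191, 165 and 185 CPM in PDL control, IKVAV PA and IKVAV PA + PEDOT-S. The sugar transferase Colgalt1 stood at 59.6, 67.6 and 63.7 CPM, the isomerase Ppib at 39.7, 43.2 and 37.6, and the lysyl hydroxylase Plod3 at 30.3, 32.8 and 29.8. These 3 share 11.4% to 25.0% of their exonic bases with other genes, so their counts are less certain.

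Of 10 measured genes for folding, export and propeptide removal, 2 were lower on each scaffold (medians -0.12 and -0.19). Sec23a of the export coat stood at 226, 219 and 235 CPM, the export receptor Mia3 at 129, 120 and 120, and the propeptide proteases Bmp1 at 34.9, 37.1 and 31.8 and Adamts3 at 34.2, 35.7 and 28.7. Serpinh1, the collagen-specific chaperone HSP47, is named here after its values were seen. It stood at 32.5, 9.33 and 6.60 CPM, 3.49-fold (3.25 to 3.74) and 4.93-fold (4.48 to 5.43) below the control.

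All 3 measured lysyl oxidases, which cross-link collagen outside the cell, were lower on both scaffolds (medians -1.46 and -2.39). Lox stood at 12.04, 2.82 and 1.16 CPM, 4.27-fold (3.78 to 4.84) and 10.4-fold (8.35 to 13.0) below the control. Loxl2 stood at 6.59, 3.44 and 1.24 CPM and Loxl1 at 5.16, 1.86 and 1.05. Only 3 of the 6 listed genes reached 1 CPM.

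Of 15 measured partners of type IV collagen in the basement membrane, 6 were lower in IKVAV PA and 8 in IKVAV PA + PEDOT-S (medians -0.55 and -0.97). The laminin chain Lamc1 was lower on both, at 62.9, 38.4 and 32.1 CPM. Agrin (Agrn) at 382, 436 and 370 CPM, the laminin chain Lamb1 at 42.4, 42.8 and 41.9, and Pxdn, which makes the sulfilimine cross-links of type IV collagen, at 36.7, 35.4 and 34.2, lay within the bound. Of 12 measured matrix proteins that bind or line fibrils, 6 were lower in IKVAV PA and 10 in IKVAV PA + PEDOT-S (medians -0.89 and -1.16). Among them fibronectin (Fn1) stood at 125, 110 and 73.9 CPM, the thrombospondin Thbs1 at 126, 58.5 and 36.9, the fibrillin Fbn2 at 56.4, 66.1 and 59.7, and Sparc, which binds collagen, at 80.3, 28.2 and 15.9.

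Of 7 measured collagen receptors, 1 was lower in IKVAV PA and 2 in IKVAV PA + PEDOT-S (medians -0.40 and -0.49). Adgrg1, a receptor for type III collagen in the developing cortex, stood at 166, 129 and 147 CPM, the integrin chain Itgb1 at 111, 76.4 and 78.9, and the kinase receptors Ddr1 at 43.9, 37.7 and 42.0 and Ddr2 at 8.46, 4.37 and 5.16. Of the 4 measured collagenases and inhibitors, 2 and 3 were lower (medians -0.90 and -1.07). The inhibitor Timp2 stood at 435, 429 and 461 CPM and Timp3, with 21.3% of its exonic bases shared, at 14.5, 6.68 and 7.26, while the proteases Mmp14 stood at 7.63, 3.51 and 3.42 and Mmp2 at 3.13, 1.93 and 0.703.

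**Figure D5:**
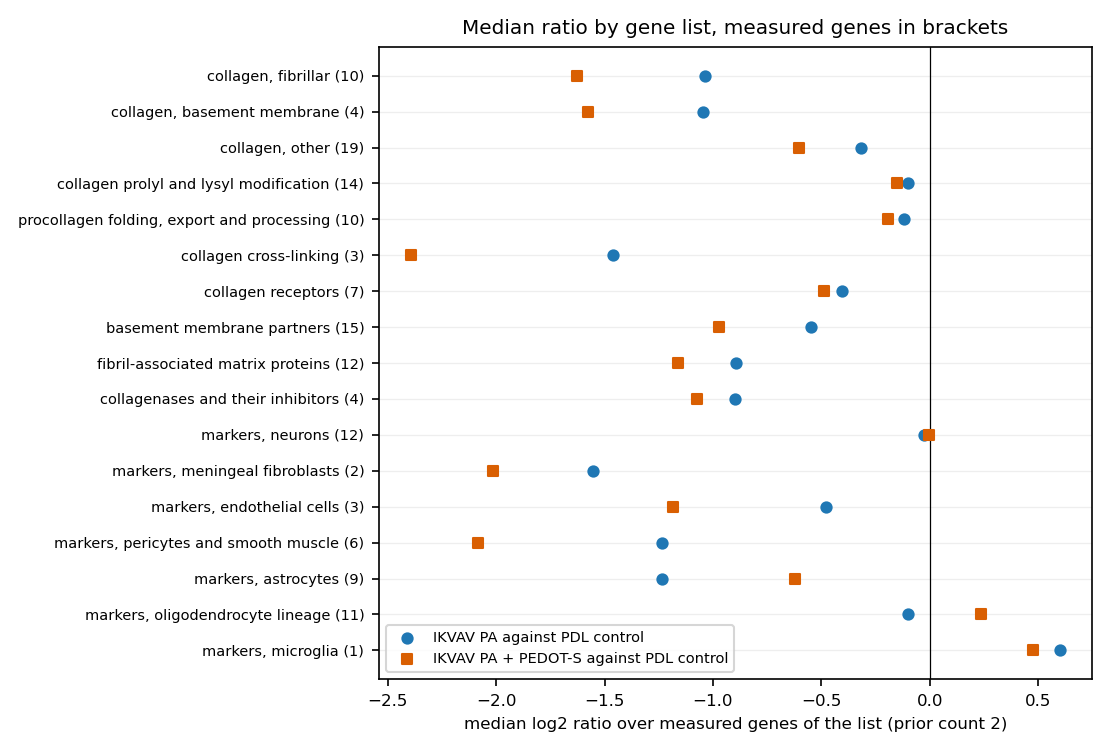
Median log2 ratio to the PDL control over the measured genes of each list (number in brackets), circles for IKVAV PA and squares for IKVAV PA + PEDOT-S. The cross-linking list lies at -1.46 and -2.39 and the fibrillar chains at -1.04 and -1.63, while modification, folding and neuron lists lie near 0.

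Neuron markers were level and abundant in all 3 libraries, while several lists of markers of other cells were lower beside the collagens. To be set beside the counts below, 3.42% of all genes were lower and 0.54% higher in IKVAV PA than in the control. In IKVAV PA + PEDOT-S these shares were 3.76% and 0.447%. All 12 neuron markers were measured and 0 were beyond the bound, with summed levels of 7423, 7587 and 7404 CPM in PDL control, IKVAV PA and IKVAV PA + PEDOT-S, led by Map2 (2447, 2450 and 2377), Tubb3 and Stmn2. Pericyte and smooth muscle markers summed to 109, 43.5 and 20.0 CPM, and of the 6 of 13 measured, 5 were lower in IKVAV PA and 6 in IKVAV PA + PEDOT-S. Acta2, smooth muscle actin, was the largest part of each sum, at 78.6, 26.5 and 9.99 CPM, followed by Rgs5 (7.66, 6.28 and 3.26) and Notch3 (6.03, 2.98 and 2.62), and Kcnj8 was at 0 counts on both scaffolds. Meningeal fibroblast markers summed to 15.6, 6.59 and 3.999 CPM with 2 of 12 measured, Pdgfra (10.7, 4.06 and 1.81) and Prrx1 (2.46, 0.738 and 0.869). Both were lower on both scaffolds, although Prrx1 reached 1 CPM in the control alone and so had to lie lower elsewhere. Pdgfra made up most of the control sum, so the lower sums rest largely on this gene. Which cells its RNA came from was not tested. Crabp2 stood at 0.314, 0.562 and 0.345 CPM. Foxc1, the defining factor of these fibroblasts, stood at 0.565, 0.273 and 0.179 CPM. Foxc2 and Aldh1a2 were at 0 counts in IKVAV PA, and Slc6a13 was at 0 in IKVAV PA + PEDOT-S. Endothelial markers summed to 7.44, 4.77 and 4.18 CPM with 3 of 11 measured, Kdr, Pecam1 and Flt1. Tie1 was at 0 in all libraries, Ly6c1 at 0 on both scaffolds and Erg at 0 in the PDL control. Astrocyte markers summed to 392, 238 and 252 CPM, with 7 of 9 lower in IKVAV PA, and 4 lower and 1 higher in IKVAV PA + PEDOT-S. Among the lower were Fabp7 (112, 29.5 and 39.8) and Slc1a3 (57.8, 24.9 and 27.6), whereas Slc1a2 (169, 161 and 153) was not. Oligodendrocyte markers summed to 102, 83.0 and 114 CPM, with 3 of 11 lower and 2 higher in IKVAV PA and 2 lower and 5 higher in IKVAV PA + PEDOT-S, among them Mbp (28.3, 33.2 and 53.3). Of 10 microglia markers 1 was measured, Aif1, at 1.142, 1.74 and 1.60 CPM. Like Prrx1, the markers Cnn1 (smooth muscle), Flt1 (endothelium), Aqp4 (astrocytes) and Gpr17 (oligodendrocyte lineage) reached 1 CPM in the control alone. The part of these cells in the collagen result was not tested.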

How the data were processed

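RNA-seq was made from 3 libraries of cultured mouse cortical neurons, 1 per group, grouped by title and library name. Each deposited table lists raw integer counts for 54232 Ensembl genes, made by the authors with cutadapt 4.2, STAR 2.7.5, HTSeq 2.0.2 and mm10, per the submitters' processing notes, which also list DESeq2 1.14.1. The annotation release is not given in the sources used here, nor is the strand setting, so reads of overlapping or antisense genes cannot be told apart. No chain shared over 6.07% of its exonic bases. The labels name polyA RNA as the molecule but a total RNA kit for the libraries.

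Symbols, coordinates and exon lengths were taken from GENCODE M21 (GRCm38), with 54165 identifiers matched, and 1 listed symbol was not matched. Counts were scaled by edgeR 4.0.16 TMM factors (R 4.3.3) of 1.00 (IKVAV PA), 0.990 (IKVAV PA + PEDOT-S) and 1.01 (PDL control), on totals of 124425958, 79057998 and 78993105. Genes with at least 1 CPM in at least 1 library were kept. Ratios carry a 95% Clopper-Pearson interval of 1 count given the sum of both, and list medians use a prior count of 2. Reads are not independent molecules, so intervals cover counting error only. The calculation was tested on simulated data. Scaling by DESeq2 1.42.0 and by totals was tried as well, as were TMM from protein-coding genes, other minimums, bounds and prior counts, thinning, and leaving out genes with shared exons.

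Members and lists were chosen with earlier results of these data known. All measured chains are named, with the 4 most abundant measured members of each companion list and up to 3 of each marker list. Proteins are not shown here, and coding stretches stand in their place.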

Additional observations from a re-analysis of the deposited data

How the results depend on the processing

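No paired analysis was possible because each group has 1 library. No value changed sign beyond the bound under any alternative run. Under DESeq2 size factors, total counts, TMM from protein-coding genes, thinning to the smallest total and leaving out genes that share over 10% of exonic bases, the counts of lower chains stayed within 1.5 times those reported (16 for IKVAV PA and 18 for IKVAV PA + PEDOT-S against PDL, 9 between the scaffolds), and each class sum and median stayed on its side of the bound. Total counts gave the most, 19 and 11 in the last 2, by adding Col16a1 in the former and Col7a1 and Col20a1 in the latter. With no minimum level, 1 chain, Col13a1, was higher in IKVAV PA than in the PDL control. The median of the other chains became -0.55 for IKVAV PA + PEDOT-S against PDL, inside the bound, and -0.33 between the scaffolds, where the basement membrane median became -0.72, beyond it. With at least 5 CPM, 10 and 11 of 17 chains were lower than the control in IKVAV PA and IKVAV PA + PEDOT-S, since fewer chains were tested. The other chains then had a median of -0.59 in IKVAV PA, and the basement membrane chains one of -0.64 between the scaffolds, both beyond the bound. With a 2-fold bound, 10, 15 and 1 chains were lower in the 3 comparisons, in the order given above. At that bound 4 sums were no longer beyond it, namely fibrillar chains in IKVAV PA (-0.84) and between the scaffolds (-0.87), and basement membrane (-0.98) and other chains (-0.80) in IKVAV PA + PEDOT-S against PDL. By the point ratio alone 1 chain, Col11a2, was higher in IKVAV PA and 18 were lower between the scaffolds. A prior count of 5 put the median of the other chains in IKVAV PA + PEDOT-S at -0.58, inside the bound.

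Over all genes, 475 lower and 75 higher in IKVAV PA against PDL became 846 and 484 with no minimum, 227 and 18 with at least 5 CPM, 219 and 9 at 2-fold and 719 and 283 by point ratio. The 522 and 62 of IKVAV PA + PEDOT-S against PDL became 1082 and 247, 232 and 37, 258 and 13, and 916 and 176, and without genes with shared exons 41 were higher. The 280 and 46 between the scaffolds became 1123 and 230, 96 and 23, 75 and 7, and 627 and 153. Depth limits the rarest chains: at 42 counts in IKVAV PA + PEDOT-S, Col6a2 lost its call between the scaffolds when libraries were thinned.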

Other observations

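Col13a1, a membrane-spanning collagen known from the neuromuscular junction, counted as higher than the control in IKVAV PA, although it stayed below 1 CPM in every library and was picked out after its values were seen. With no minimum it was the 1 chain of 44 that counted as higher there, beside 484 of 31695 genes. It had 9 counts in the PDL control, 72 in IKVAV PA and 20 in IKVAV PA + PEDOT-S, or 0.113, 0.578 and 0.256 CPM. Its ratio to the control was 5.11 (95% counting interval 2.55 to 11.6) in IKVAV PA and 2.26 (0.984 to 5.64) in IKVAV PA + PEDOT-S. At the other end of these rare chains, Col4a4 of the kidney filter had 37 counts in the PDL control, 33 in IKVAV PA and 5 in IKVAV PA + PEDOT-S, with a ratio to the control of 0.138 (0.0422 to 0.351) in the last. With so few counts in 1 library per group, both values describe these libraries alone.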
